A study of Rattus norvegicus with 24 samples.

Results

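The genes described here are 10 genes of the synaptic vesicle and of the membrane fusion machinery at the nerve terminal: Snap25, Stx1a, Vamp1, Vamp2, Syt1, Syp, Sv2a, Sv2b, Syn1 and Syn2. They were found by symbol, as every probe set that the platform annotation gave to 1 of these 10 genes. That yielded 19 of the 31042 probe sets that are not controls, with 1 probe set for 4 of the genes and several for 6. Tissue of 6 brain regions was taken from male rats, and each region was hybridised for 4 strain groups on Affymetrix Rat RAE 230 2.0 arrays, which gave 24 arrays with 1 array per strain group and region. The groups were SHR, the spontaneously hypertensive rat, an inbred strain used as a genetic model of attention deficit hyperactivity disorder (8 rats); WKY, the Wistar-Kyoto strain set against it (8 rats); SDpcb, Sprague-Dawley rats exposed to polychlorinated biphenyls (4 rats); and SD, unexposed Sprague-Dawley rats (8 rats). All 28 rats were postnatal day 55 to 65. The mixture, dose, route and age of the PCB exposure are not given in the sources used here, and neither is the number of rats behind each array. SHR and WKY are separate inbred strains, so a difference between them covers every locus at which they differ.

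Neurotransmitter release depends on a helical bundle that pulls a vesicle onto the plasma membrane. SNAP-25 and syntaxin-1A supply its target membrane strands, a synaptobrevin (VAMP1 or VAMP2) supplies the vesicle strand, and synaptotagmin-1 is the calcium sensor that triggers fusion. Synaptophysin and the SV2 glycoproteins are vesicle membrane proteins, and the synapsins are phosphoproteins that tether vesicles in the reserve pool. Snap25 is also a gene that has been studied in relation to hyperactivity, since loss of 1 copy together with neighbouring genes gives the hyperactive coloboma mouse.

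The deposited values were linear MAS5 signals, scaled so that the 2% trimmed mean of an array was 500.2, with no detection calls. Array medians ran from 132 to 178 in SHR, 109 to 153 in WKY, 89.0 to 126 in SDpcb and 131 to 184 in SD, so the SDpcb arrays held lower medians under the same trimmed mean. The number of arrays limits the precision. A difference between strain groups was estimated over the 6 regions, and its p-value measured agreement between regions of the same set of rats, not between rats. Tissue of origin was checked on 8 genes, and on these genes 2 arrays stood apart from their label. Tyrosine hydroxylase (Th) in substantia nigra/VTA read 217 in SDpcb, against 2222 in SD, with 3742 in SHR and 1367 in WKY. The dopamine transporter Slc6a3 read 955 in SDpcb, against 7789 in SD, with 8411 in SHR and 5916 in WKY. Gabra6, a receptor subunit of cerebellar granule cells, read 2297 in the prefrontal cortex array of WKY, against 28.8 in SHR, 97.0 in SDpcb and 47.1 in SD. For the calls in SHR minus WKY and in SDpcb minus SD, values without their region are given below. They are not given for WKY minus SD, and only for some genes in the contrast of SHR minus WKY with SDpcb minus SD.

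Of the 19 probe sets, 14 reached the mean signal that was required for testing (137, the median probe set) and 5 did not. The genes tested were 9 of the 10, each represented by its brightest probe set. Syt1 was not tested: its only probe set averaged 49.6 and ran from 5.85 to 168 over the 24 arrays, so no statement on the calcium sensor was possible at this signal. Stx1a reached it through its prefrontal cortex arrays, since its mean over the other 5 regions was 103, so its regional values are given as a description. The other 4 untested probe sets were further probe sets of Vamp2 (mean 11.2), Sv2b (51.7), Stx1a (61.3) and Vamp1 (49.5). The brightest probe sets averaged 19188 for Snap25 and 15832 for Sv2b, 5135 for Syp, 3006 for Syn1, 2107 for Sv2a, 1913 for Syn2, 1736 for Vamp2, 1337 for Vamp1 and 175 for Stx1a. These are signals of different probes and give no order of transcript abundance.

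**Figure D1:**
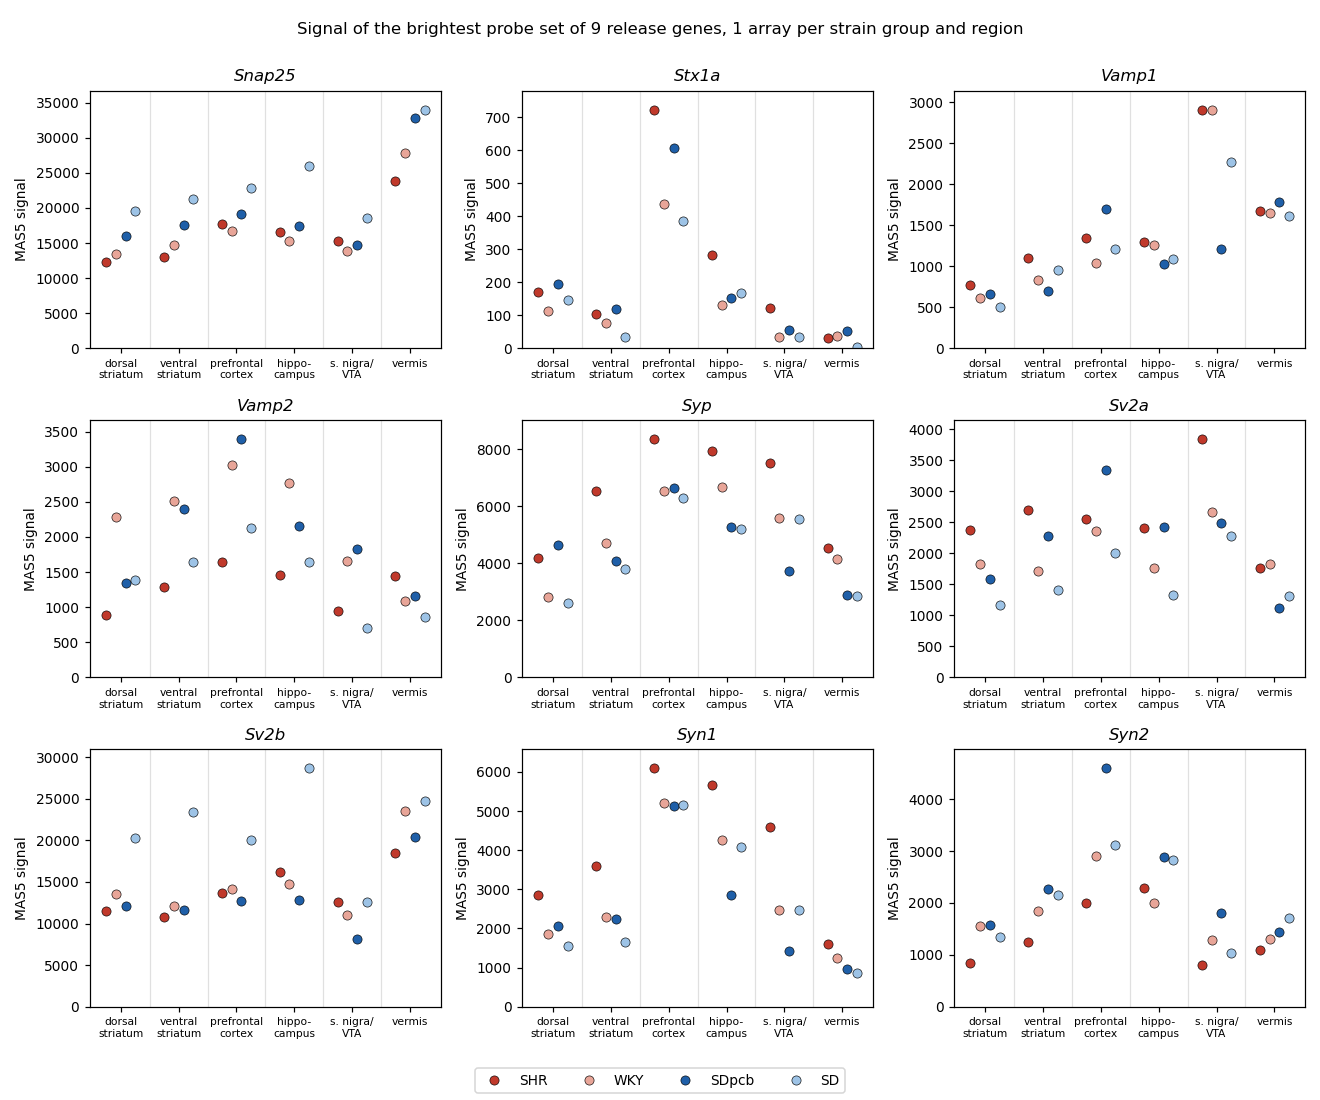
MAS5 signal (linear axis from 0) of the brightest probe set of the 9 tested genes by brain region, with 1 point per array and a colour per strain group. The SHR points of Syp and Syn1 lie above the WKY points in all 6 regions, Snap25 is highest in the vermis of every strain group, and Stx1a is highest in the prefrontal cortex (385 to 723).

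The comparison of SHR with WKY asked how the genetic model differs from the strain it is usually set against. Over the 9 tested genes 2 rose in SHR (Syp and Syn1) and 2 fell (Vamp2 and Syn2) at an adjusted p under 0.05, while 20.6% of all 8987 tested genes were called higher and 13.1% lower in the same fit. The share of members called was therefore near that of all genes. The median log2 difference was 0.20 over the 9 genes and 0.11 over all genes. Snap25 was not among the genes called.

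Vamp2, the synaptobrevin of most forebrain terminals, showed the largest called difference of the 9. Its signal had a lowest, median and highest value of 891, 1369 and 1648 in SHR, against 1085, 2398 and 3019 in WKY. The ranges overlapped between regions, but within a region SHR was lower in 5 of 6, and only the vermis went the other way, with 1450 in SHR and 1085 in WKY. Vamp2 fell by 0.75 ± 0.17 on the log2 scale in SHR (SE, 6 regions; limma adjusted p = 0.00255), a ratio of 0.593. The exact sign-flip test over the 6 within-region differences gave p = 0.0625, which could not go below 0.0312 in any gene. Without the vermis arrays the difference was -0.99.

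Syn2, a synapsin of both excitatory and inhibitory terminals, was lower as well. Its lowest, median and highest signals were 799, 1166 and 2281 in SHR and 1284, 1706 and 2910 in WKY. SHR was lower in 5 of 6 regions, the hippocampus being the exception with 2281 in SHR and 1991 in WKY. The log2 difference was -0.46 ± 0.13 (adjusted p = 0.00976). The exact sign-flip test gave p = 0.0625. The call was lost without the dorsal striatum arrays, where it was -0.37 (adjusted p = 0.0654).

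Syn1, the X-linked synapsin, was higher in SHR in all 6 regions. Its signals were 1590, 4090 and 6094 (lowest, median, highest) in SHR, against 1234, 2382 and 5202 in WKY. The smallest within-region log2 difference was 0.23, in the prefrontal cortex, and the largest was 0.90, in substantia nigra/VTA, where the array of SHR read 4589 and that of WKY 2462. Syn1 rose by 0.53 ± 0.14 (adjusted p = 0.00723; exact sign-flip p = 0.0312), a ratio of 1.44.

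Syp, which encodes synaptophysin, was also higher in all 6 regions, with 4176, 7026 and 8369 in SHR and 2828, 5152 and 6697 in WKY. The log2 difference was 0.36 ± 0.13 (adjusted p = 0.0300; exact sign-flip p = 0.0312), with within-region values from 0.12 in the vermis to 0.56 in the dorsal striatum. It was the weakest of the 4 calls: without the ventral striatum, prefrontal cortex or hippocampus arrays the adjusted p was 0.101, 0.0685 and 0.0638. With every array centred on its median, Syp and Syn1 differed by 0.03 and 0.19 and were not called, while the median of all genes moved to -0.22. Centring shifts all genes of an array alike, so the differences relative to all genes, 0.25 and 0.42, could not change. Sv2a, an SV2 glycoprotein found in most neurons, had a difference of 0.34 ± 0.14 that missed the threshold as deposited (adjusted p = 0.0594) and passed it after quantile normalization (0.43, adjusted p = 0.0207).

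Without the prefrontal cortex arrays, where the WKY array had high Gabra6, the difference was -0.73 for Vamp2 (adjusted p = 0.0111), -0.45 for Syn2 (adjusted p = 0.0298) and 0.59 for Syn1 (adjusted p = 0.00877).

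The remaining 4 genes were not called. Snap25 read 12291, 15922 and 23828 in SHR and 13376, 15002 and 27839 in WKY, with SHR higher in 3 regions and lower in 3. The groups overlapped almost wholly, and the log2 difference was -0.03 ± 0.07 (adjusted p = 0.766). Sv2b differed by -0.08 ± 0.11, Vamp1 by 0.20 ± 0.17 and Stx1a by 0.72 ± 0.38, with adjusted p of 0.618, 0.382 and 0.150.

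**Figure D2:**
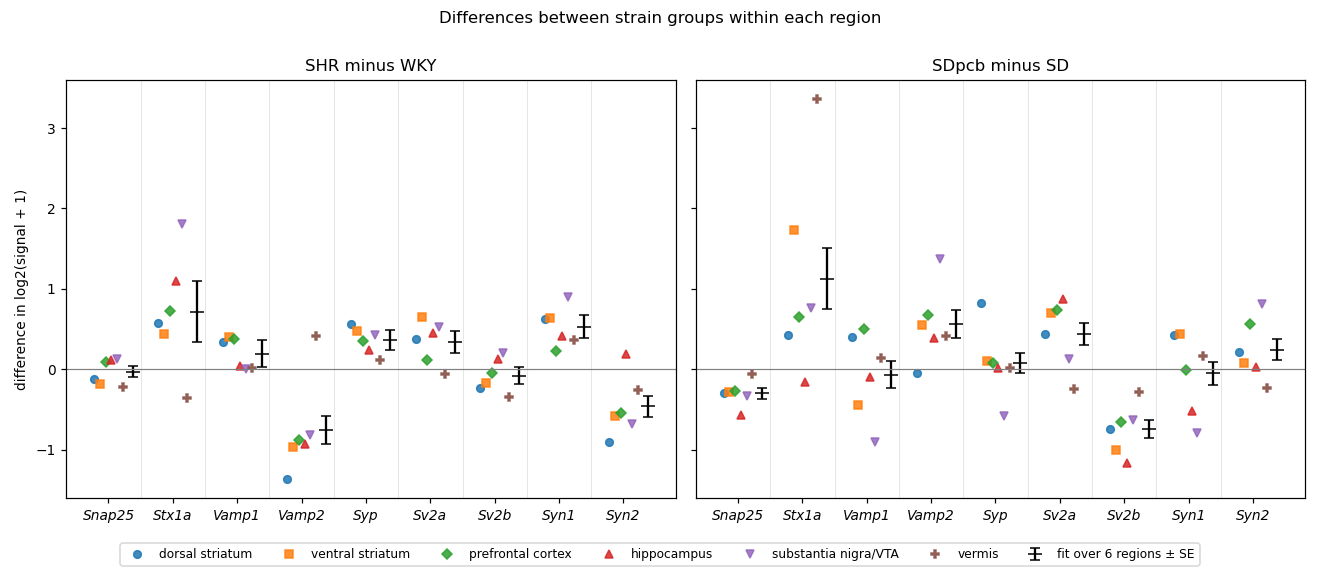
Differences in log2(signal + 1) between strain groups within each of the 6 regions (coloured markers) for the 9 tested genes, with the fitted difference over regions and its SE in black; SHR minus WKY on the left and SDpcb minus SD on the right. Vamp2 lies below 0 in 5 of 6 regions on the left and above 0 in 5 of 6 on the right, and the vermis point of Stx1a on the right (3.36) rests on signals of 51.1 and 4.07.

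The promoters of the 4 genes called in this comparison are shown to let them be set side by side, since Syp and Syn1 moved one way and Vamp2 and Syn2 the other. The windows come from RefSeq on the rat assembly GRCr8 and run from 250 bases before to 50 bases after the annotated start; a window was on hand for 9 of the 10 genes. Capitals mark TGACGT (the short form of the cAMP response element) and GGGCGG (the GC box) on either strand. The positions are chrX:3725495-3725794 on the plus strand for Syn1, chrX:17536400-17536699 on the minus strand for Syp, chr10:54292539-54292838 on the plus strand for Vamp2 and chr4:149858669-149858968 on the plus strand for Syn2.
Syn1: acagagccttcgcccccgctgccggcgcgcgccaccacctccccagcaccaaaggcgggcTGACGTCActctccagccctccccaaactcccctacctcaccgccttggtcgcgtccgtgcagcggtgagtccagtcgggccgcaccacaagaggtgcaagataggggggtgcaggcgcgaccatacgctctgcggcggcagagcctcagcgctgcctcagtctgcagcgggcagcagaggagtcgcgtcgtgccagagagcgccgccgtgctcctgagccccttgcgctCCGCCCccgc
Syp: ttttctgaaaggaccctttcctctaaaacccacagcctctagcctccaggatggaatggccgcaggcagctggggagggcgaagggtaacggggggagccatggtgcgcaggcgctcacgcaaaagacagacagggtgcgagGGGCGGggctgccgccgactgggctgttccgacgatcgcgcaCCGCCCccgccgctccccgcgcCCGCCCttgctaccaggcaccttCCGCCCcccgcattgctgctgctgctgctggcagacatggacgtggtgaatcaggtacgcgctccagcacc
Vamp2: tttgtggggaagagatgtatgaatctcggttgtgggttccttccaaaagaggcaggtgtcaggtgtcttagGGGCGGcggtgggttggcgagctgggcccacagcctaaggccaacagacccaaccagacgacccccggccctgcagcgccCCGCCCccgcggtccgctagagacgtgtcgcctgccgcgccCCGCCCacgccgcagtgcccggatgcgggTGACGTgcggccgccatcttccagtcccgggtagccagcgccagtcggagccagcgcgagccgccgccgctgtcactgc
Syn2: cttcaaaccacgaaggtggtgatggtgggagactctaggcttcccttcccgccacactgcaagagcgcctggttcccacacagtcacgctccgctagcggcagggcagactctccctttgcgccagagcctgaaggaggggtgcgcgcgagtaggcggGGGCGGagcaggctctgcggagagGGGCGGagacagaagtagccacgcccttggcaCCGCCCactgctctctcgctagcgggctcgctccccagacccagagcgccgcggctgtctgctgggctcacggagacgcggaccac
A full cAMP response element, TGACGTCA, occurred in the window of Syn1 and in that of Vamp1, that is in 2 of the 9 windows, against 1.83% of all 33469 windows of this length in the table. The short form TGACGT occurred in 3 of the 9 (Syn1, Vamp1 and Vamp2), against 7.94% of all windows; each full element holds the short form once on each strand. GC boxes were found in 7 of the 9, all but Sv2a and Sv2b, against 33.1% of all windows, with 1 in Syn1, 4 in Syp, 3 in Vamp2 and 3 in Syn2. TATAAA was found in 0 of the 9 on either strand, against 14.2% of all windows. The genes that were higher in SHR and those that were lower were alike in holding GC boxes. A match is a run of letters and was not tested for binding.

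The comparison of SDpcb with SD asked what differs after PCB exposure within 1 stock of rats. As deposited, 3 of the 9 genes rose in SDpcb (Vamp2, Sv2a and Stx1a) and 2 fell (Sv2b and Snap25), while 14.9% of all genes were called higher and 13.5% lower. The median log2 difference was 0.08 over the 9 genes and 0.01 over all genes. Sv2b and Stx1a kept their calls and directions after quantile and after cyclic loess normalization. For the 2 brightest genes, Snap25 and Sv2b, the value depended on the scaling of the arrays, as set out below.

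Sv2b, which encodes the SV2 glycoprotein abundant in glutamatergic terminals, gave the largest fall. Its signals in SDpcb were 8129, 12410 and 20441 (lowest, median, highest), against 12601, 21834 and 28691 in SD. SDpcb was lower in all 6 regions, from -0.28 in the vermis to -1.16 in the hippocampus. The log2 difference was -0.75 ± 0.11 (adjusted p = 2.45e-05; exact sign-flip p = 0.0312). After quantile normalization it was -0.29 ± 0.07 (adjusted p = 0.00599), lower in 6 of 6 regions, and with arrays centred on their median it was -0.02.

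Snap25 in SDpcb read 16023 in the dorsal striatum, 17555 in the ventral striatum, 19072 in the prefrontal cortex, 17469 in the hippocampus, 14783 in substantia nigra/VTA and 32802 in the vermis. The SD arrays read 19566, 21275, 22896, 25921, 18605 and 34032 in the same order of regions. SDpcb was lower in 6 of 6 regions, by 0.05 on the log2 scale in the vermis and by 0.57 in the hippocampus. Snap25 fell by 0.30 ± 0.07 on the log2 scale as deposited (adjusted p = 0.00236; exact sign-flip p = 0.0312).

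Quantile normalization, which gives every array the same distribution, turned the direction: Snap25 was then 0.31 ± 0.06 higher in SDpcb (adjusted p = 6.49e-04), in 6 of 6 regions. Cyclic loess normalization did not turn it, and gave a log2 difference of -0.16. Centring arrays on their median gave 0.43, but that setting moved the median of all genes to 0.73. Relative to all genes Snap25 was at -0.30 as deposited, a value that centring cannot change. It was 0.23 after quantile and -0.20 after cyclic loess normalization. Without the substantia nigra/VTA arrays, where the SDpcb array had low Th, the differences as deposited were -0.29 for Snap25 (adjusted p = 0.00677) and -0.77 for Sv2b (adjusted p = 3.11e-05).

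Both genes belong to the brightest 1% of tested probe sets, 156 with a mean signal of at least 10523. The median log2 difference over those 156 was -0.44 in SDpcb minus SD as deposited and -0.04 after quantile normalization; in SHR minus WKY it was 0.02 as deposited. In SDpcb minus SD as deposited, Snap25 (-0.30) thus fell by less than this bright end, and Sv2b (-0.75) by more. Their ranks within an array, which do not depend on its scaling, moved opposite ways (rank 1 being the highest signal). The median rank of Snap25 was 6 in SDpcb and 30.5 in SD, and that of Sv2b 74 and 36.5. The part of the bright end in their differences was not tested.

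**Figure D3:**
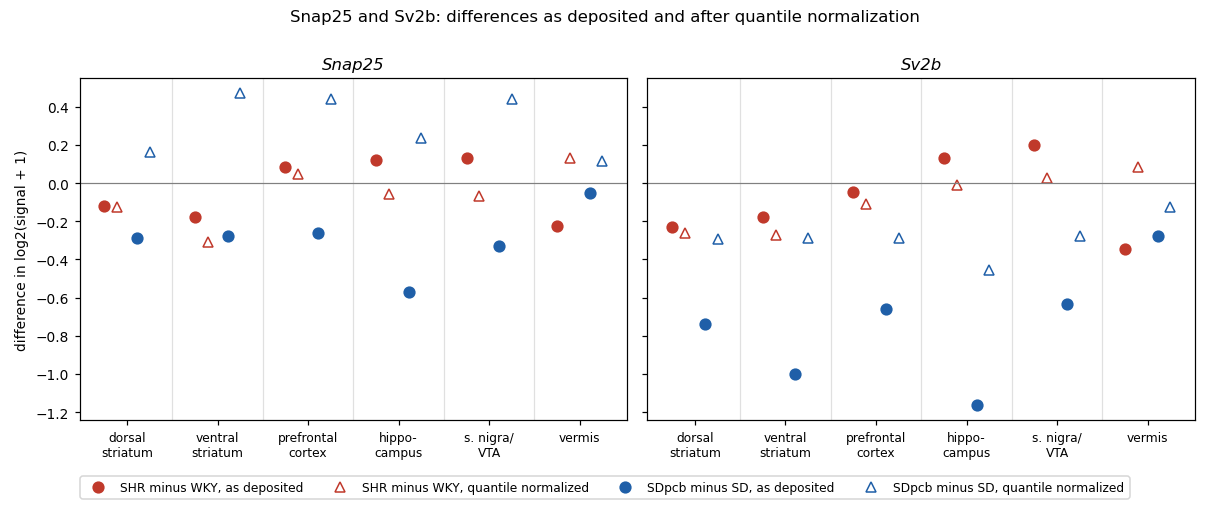
Differences in log2(signal + 1) for Snap25 (left) and Sv2b (right) within each region, as deposited (filled circles) and after quantile normalization (open triangles), for SHR minus WKY (red) and SDpcb minus SD (blue). For Snap25 the blue circles lie below 0 and the blue triangles above 0 in all 6 regions; for Sv2b both lie below 0 in all 6.

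Vamp2 was higher in SDpcb in 5 of 6 regions, with 1156, 1987 and 3396 in SDpcb and 703, 1516 and 2132 in SD. The dorsal striatum was level at 1349 in SDpcb and 1391 in SD, and the widest gap was in substantia nigra/VTA with 1824 in SDpcb and 703 in SD. The log2 difference was 0.56 ± 0.17 (adjusted p = 0.0163; exact sign-flip p = 0.0625). Without the substantia nigra/VTA arrays it was 0.40 (adjusted p = 0.107), without the ventral striatum arrays the adjusted p was 0.0501, and after quantile normalization it was 0.40 (adjusted p = 0.0954).

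Sv2a rose by 0.44 ± 0.14 (adjusted p = 0.0179; exact sign-flip p = 0.0938), with 1111, 2350 and 3340 in SDpcb against 1166, 1365 and 2282 in SD, and was higher in 5 of 6 regions. After quantile normalization the value was 0.28 (adjusted p = 0.135), and without the ventral striatum, prefrontal cortex or hippocampus arrays the adjusted p was 0.0808, 0.0537 and 0.101. Stx1a rose by 1.13 ± 0.38 (adjusted p = 0.0253; exact sign-flip p = 0.0625), and by 1.75 after quantile normalization (adjusted p = 0.00229). Its signals are low, 51.1 to 606 in SDpcb and 4.07 to 385 in SD, and without the vermis arrays the difference was 0.68 (adjusted p = 0.0615). The Stx1a call was also lost without the ventral striatum arrays (adjusted p = 0.0972) and without the prefrontal cortex arrays (adjusted p = 0.0747). Without the substantia nigra/VTA arrays the difference was 0.50 for Sv2a (adjusted p = 0.0209) and 1.20 for Stx1a (adjusted p = 0.0332). Syn1 (-0.05 ± 0.14), Syn2 (0.24 ± 0.13), Syp (0.08 ± 0.13) and Vamp1 (-0.07 ± 0.17) were not called. For Vamp1 the largest within-region difference was -0.90, in substantia nigra/VTA; without those arrays the difference over regions was 0.10.

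SHR and WKY were each also set against SD, and these comparisons share the SD arrays with the PCB comparison. In SHR minus SD, 4 of the 9 genes rose (Syp, Sv2a, Stx1a and Syn1) and 3 fell (Sv2b, Syn2 and Snap25), with 24.3% of all genes called higher and 11.5% lower. In WKY minus SD, Vamp2 rose and Sv2b and Snap25 fell, with 9.32% of all genes higher and 7.83% lower. The 7 members called in SHR minus SD were called without any 1 region as well. After quantile normalization the brightest probe sets of Snap25 and Sv2b were no longer called in either comparison. The second tested probe set of Sv2b was lower in 6 of 6 regions in SHR minus SD. It gave -0.63 as deposited (adjusted p = 0.0783) and -0.75 after quantile normalization (adjusted p = 0.0436). In WKY minus SD that probe set gave 0.28 as deposited (adjusted p = 0.514). Stx1a differed by 1.31 ± 0.38 in SHR minus SD (adjusted p = 0.0101), on low signals that ran down to 29.7 in SHR and 4.07 in SD.

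Against SD, Syp was 0.60 ± 0.13 higher in SHR (adjusted p = 9.77e-04) and 0.23 ± 0.13 in WKY (adjusted p = 0.213). Syn1 differed by 0.75 ± 0.14 in SHR (adjusted p = 3.74e-04) and by 0.22 ± 0.14 in WKY (adjusted p = 0.306). Its second tested probe set gave 0.10 in SHR minus SD (adjusted p = 0.655), higher in 3 regions and lower in 3. Sv2a differed by 0.72 ± 0.14 in SHR (adjusted p = 3.81e-04) and by 0.38 ± 0.14 in WKY (adjusted p = 0.0562). On their brightest probe sets the 3 vesicle genes read higher in SHR than in SD in all 6 regions.

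Vamp2 showed the reverse arrangement: WKY was 0.69 ± 0.17 above SD (adjusted p = 0.00719) in 6 of 6 regions, while SHR differed from SD by -0.06 ± 0.17 (adjusted p = 0.808). Syn2 in SHR was 0.57 ± 0.13 below SD, in 6 of 6 regions (log2 difference -0.57, adjusted p = 0.00175), while WKY differed by -0.11 ± 0.13 (adjusted p = 0.590). The further tested probe sets of Syn2 gave -0.18 (adjusted p = 0.534) and 0.06 (adjusted p = 0.799) in SHR minus SD. Snap25 as deposited was lower than in SD in both strains, by -0.53 ± 0.07 in SHR and -0.50 ± 0.07 in WKY, in 6 of 6 regions each. After quantile normalization those values were -0.02 and 0.04, and after cyclic loess normalization -0.21 and -0.27. The bright end of the array moved by -0.45 in SHR and -0.42 in WKY as deposited. Sv2b behaved likewise, with -0.62 in SHR and -0.54 in WKY as deposited and -0.15 and -0.06 after quantile normalization. Cyclic loess normalization gave -0.33 and -0.35 for Sv2b.

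The study set a genetic against an environmental model, and the difference between SHR minus WKY and SDpcb minus SD was fitted as a contrast of its own. These comparisons share no array. It was called for 5 of the 9 genes, against 39.8% of all genes. Vamp2 gave the largest value, -1.31 ± 0.24 (adjusted p = 2.78e-04), being -0.75 in SHR minus WKY and 0.56 in SDpcb minus SD. Syn2 gave -0.71 ± 0.18 (adjusted p = 0.00411), from -0.46 and 0.24. Syn1 gave 0.58 ± 0.20 (adjusted p = 0.0248), from 0.53 and -0.05. These 3 kept their calls after quantile normalization, at -1.12, -0.51 and 0.77. The call of Syn1 was lost when hippocampus arrays were left out (0.51, adjusted p = 0.0916) and when those of substantia nigra/VTA were (0.36, adjusted p = 0.136).

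For the brightest genes the contrast did not keep its size or direction. Snap25 gave 0.27 ± 0.10 as deposited (adjusted p = 0.0346) and -0.37 ± 0.08 after quantile normalization (adjusted p = 0.00187). As deposited, the Snap25 call was lost without the dorsal striatum, prefrontal cortex, hippocampus or substantia nigra/VTA arrays, with adjusted p of 0.0589, 0.0925, 0.194 and 0.105. Sv2b gave 0.67 ± 0.15 (adjusted p = 0.00183) and, after quantile normalization, 0.20 ± 0.10 (adjusted p = 0.143). Its second tested probe set went the opposite way, at -1.32 ± 0.39 (adjusted p = 0.00931) as deposited and -1.33 after quantile normalization. The second probe set of Syn1 was also opposite to the brightest, at -0.47 ± 0.21 (adjusted p = 0.0849). The further tested probe sets of Syn2 gave -0.73 and 0.28, neither called as deposited. The contrast for the other 4 genes was not called as deposited, with adjusted p from 0.203 for Syp to 0.724 for Sv2a.

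Each region, with 4 arrays, was set against the mean of the other 5, and a gene was called where its adjusted p was under 0.05 and its difference reached 1 on the log2 scale. The prefrontal cortex had 2 members called higher (Stx1a and Syn1) and 0 lower, with 2.79% of all genes called higher and 2.01% lower. The vermis had 0 higher and 2 lower (Stx1a and Syn1), with 4.30% and 9.89% of all genes. Substantia nigra/VTA had 1 higher (Vamp1) and 1 lower (Stx1a), with 3.30% and 3.52%. The dorsal striatum had 0 higher and 1 lower (Vamp1), with 3.28% and 2.25%. The ventral striatum had no member called in either direction, with 1.76% and 0.545% of all genes, and the hippocampus none, with 2.07% and 0.835%. The calls of Stx1a add no support to these counts, since the gene was tested only through its prefrontal cortex signal. The median log2 difference over the 9 genes was 0.61 in the prefrontal cortex and -0.53 in the vermis, against -0.02 and -0.08 over all genes.

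Stx1a encodes the plasma membrane syntaxin. In the prefrontal cortex it read 723 in SHR, 436 in WKY, 606 in SDpcb and 385 in SD, and no array of another region exceeded 283. The log2 difference from the other regions was 2.77 ± 0.36, given as a description. In the vermis it read 29.7 in SHR, 38.4 in WKY, 51.1 in SDpcb and 4.07 in SD, a difference of -2.58 ± 0.36. With signals this low, the size of that difference is uncertain. In substantia nigra/VTA the difference was -1.18 ± 0.36, and the call was lost without the SDpcb arrays (-1.07, adjusted p = 0.0872), without the WKY arrays (-1.01, adjusted p = 0.106) and after quantile normalization (-0.88, adjusted p = 0.0704).

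Syn1 was likewise highest in the prefrontal cortex and lowest in the vermis. Its prefrontal cortex arrays read 6094 in SHR, 5202 in WKY, 5141 in SDpcb and 5155 in SD, and its vermis arrays 1590, 1234, 973 and 869. Of the other regions, the SHR hippocampus array, at 5669, reached into the prefrontal cortex range, and the SDpcb substantia nigra/VTA array (1427) and the SD dorsal striatum array (1544) reached into the vermis range. The differences were 1.27 ± 0.13 (adjusted p = 3.08e-07) and -1.42 ± 0.13 (adjusted p = 6.76e-09). Its other tested probe set gave 1.23 and -0.97. Without the WKY arrays, which hold the prefrontal cortex array with high Gabra6, the prefrontal cortex difference was 1.28 for Syn1 and 2.81 for Stx1a.

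Vamp1, the synaptobrevin known from motor and brainstem neurons, was highest in substantia nigra/VTA and lowest in the dorsal striatum. Substantia nigra/VTA arrays read 2909 in SHR, 2910 in WKY, 1216 in SDpcb and 2266 in SD. The vermis arrays read 1670, 1649, 1777 and 1608, and the dorsal striatum arrays 776, 614, 664 and 503. The substantia nigra/VTA array of SDpcb, the one with low Th and Slc6a3, was the only one of its region below the vermis arrays. Vamp1 rose by 1.04 ± 0.16 in substantia nigra/VTA (adjusted p = 1.88e-05) and by 1.32 without the SDpcb arrays. That value lies close to the threshold of 1: it lay just under it after quantile and after cyclic loess normalization, and was 0.96 without the SHR arrays, 0.88 without the WKY arrays and 0.99 without the SD arrays. In the dorsal striatum Vamp1 fell by 1.12 ± 0.16 (adjusted p = 1.13e-05), and its other tested probe set fell by 1.43. In substantia nigra/VTA that other probe set rose by 0.98 ± 0.25, under the threshold. It read 638 there in SHR, 663 in WKY, 571 in SDpcb and 366 in SD, so on this probe set the SDpcb array was not the lowest.

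**Figure D4:**
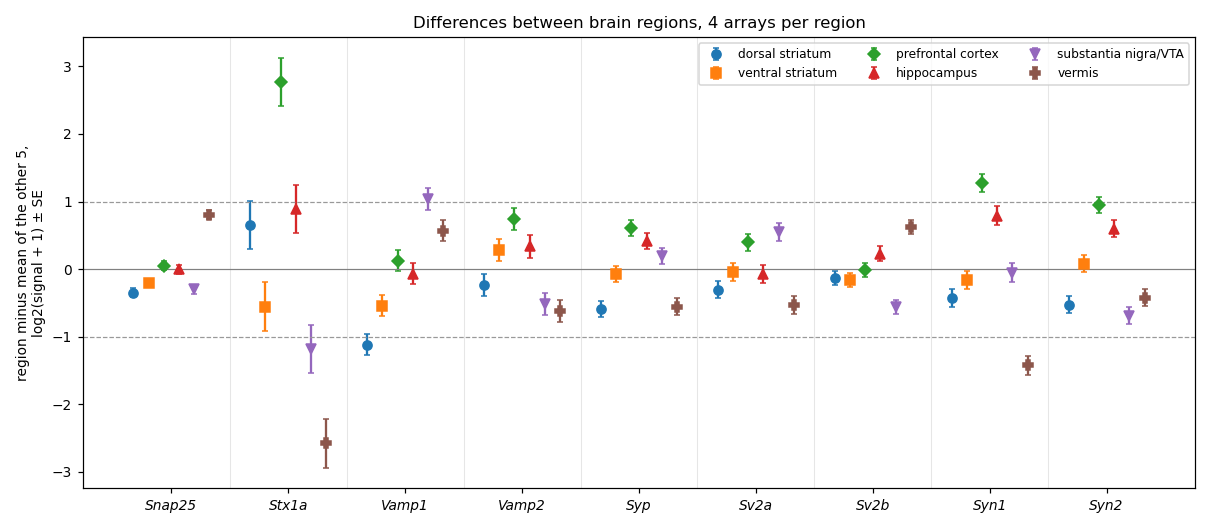
Log2 difference of each region from the mean of the other 5 regions, with SE (4 arrays per region), for the 9 tested genes; dashed lines mark log2 differences of 1 and -1. Stx1a, which was tested only through its prefrontal cortex signal, reaches 2.77 in the prefrontal cortex and -2.58 in the vermis, and Vamp1 is lowest in the dorsal striatum (-1.12) and highest in substantia nigra/VTA (1.04).

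The brightest probe sets of the other 6 tested genes stayed within a log2 difference of 1 in every region. The second tested probe set of Sv2b did not, with 1.05 ± 0.26 in the prefrontal cortex (adjusted p = 0.00496) and -1.53 ± 0.26 in substantia nigra/VTA (adjusted p = 7.98e-05), where the brightest gave -0.02 and -0.56. Syn2 was highest in the prefrontal cortex (3158 ± 1074, SD, n = 4) and the hippocampus (2497 ± 434), and lowest in substantia nigra/VTA (1227 ± 430), the dorsal striatum (1330 ± 347) and the vermis (1387 ± 255), which did not differ beyond their spread. Its prefrontal cortex difference was 0.95 ± 0.12 (adjusted p = 4.69e-06), just under the size required. Vamp2 had the same order at the top, with 2549 ± 801 in the prefrontal cortex, and was lowest in the vermis (1139 ± 242). Syp averaged 6954 ± 955 in the prefrontal cortex, 6277 ± 1299 in hippocampus arrays and 5604 ± 1542 in those of substantia nigra/VTA, values that overlapped, and was lowest in the vermis (3615 ± 866) and dorsal striatum (3573 ± 1001). Sv2a was highest in substantia nigra/VTA (2821 ± 700) and lowest in the vermis (1505 ± 346).

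As deposited, Snap25 was highest in the vermis in each of the 4 strain groups, with 29625 ± 4701 there against 19085 ± 2724 in the prefrontal cortex, the next in order. The other 5 regions, down to the dorsal striatum at 15314 ± 3239, lay within their spread of a neighbour. The vermis difference was 0.80 ± 0.07 (adjusted p = 6.59e-10) and shrank to 0.18 (adjusted p = 0.00979) after quantile normalization, while the brightest 1% of probe sets had a median of 0.44 in the vermis as deposited. After quantile normalization the Snap25 difference was larger in the prefrontal cortex (0.25, adjusted p = 0.00274), so the vermis was not its highest region on that scale. Sv2b as deposited was also highest in the vermis (21797 ± 2878) and lowest in substantia nigra/VTA (11087 ± 2114). Its vermis difference was 0.63 as deposited and 0.17 after quantile normalization, and its substantia nigra/VTA difference -0.56 and -0.42. In the hippocampus the Sv2b difference was 0.23 as deposited and 0.24 after quantile normalization, above the vermis value on the second scale only.

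These are bulk tissue values, in which fewer cells of a type and less RNA per cell cannot be told apart. Summed signals of 8 neuronal markers ran from 27893 to 36424 in SHR, 26124 to 35382 in WKY, 24676 to 37497 in SDpcb and 26690 to 36724 in SD, and 0 of the 8 passed limma's test in SHR minus WKY as deposited (1 after quantile normalization). Markers of other cells did differ beside the gene changes above. Their counts are as deposited unless stated. Of all genes, 20.6% were called higher and 13.1% lower in SHR minus WKY. In SDpcb minus SD these shares were 14.9% and 13.5%. In SHR minus WKY, 5 of 6 markers of meninges and fibroblasts, 3 of 4 tested endothelial and 3 of 4 tested microglial markers rose, with summed signals of 3777 to 17539 in SHR against 2052 to 6610 in WKY for meninges, of 2500 to 4854 in SHR against 944 to 3062 in WKY for endothelium, and a highest sum of 2291 in SHR against 1311 in WKY for microglia. In SDpcb minus SD, 5 of 6 astrocyte markers fell as deposited (2 after quantile normalization), with sums of 41779 to 75478 in SDpcb and 59109 to 81409 in SD, 3 of 6 oligodendrocyte markers fell (1 after quantile normalization), with sums of 27038 to 45886 in SDpcb and 36052 to 66396 in SD, and 4 of 4 tested endothelial markers rose. The endothelial sums ran from 3616 to 6090 in SDpcb and from 1283 to 4427 in SD. Summed signals of 4 choroid plexus markers ran from 110 to 21245 in SDpcb and from 501 to 14519 in SD. For SHR they ran from 526 to 7110 and for WKY from 155 to 8327. The highest was that of the SDpcb vermis array, where the vermis arrays ran from 560 to 21245. The 3' to 5' log2 ratio of the Gapdh control probe sets, a sign of RNA integrity and labelling, ran from 0.82 to 1.44 in SDpcb, against 1.96 to 2.18 in SD, and from 1.28 to 2.03 in SHR, against 1.71 to 2.16 in WKY. The part of these cell markers and ratios in the changes of the release genes was not tested.

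Where a gene had more than 1 tested probe set, these did not always move together. For Syn1 the second probe set differed by -0.19 ± 0.15 in SHR minus WKY (adjusted p = 0.367) where the brightest gave 0.53. For Syn2 the probe set better correlated with the brightest gave -0.68 ± 0.21 (adjusted p = 0.0160), in the same direction, and the other gave 0.07 ± 0.15. For Sv2b the second was lower in SHR in 5 of 6 regions, by -0.91 ± 0.27 (adjusted p = 0.0148), where the brightest gave -0.08; in SDpcb minus SD it gave 0.41 ± 0.27 (adjusted p = 0.265) where the brightest gave -0.75. The second probe set of Vamp1 gave -0.05 in SHR minus WKY and 0.48 in SDpcb minus SD, neither called. Over the 24 arrays the correlation of log2 signals with the brightest probe set was 0.80 for Syn1, 0.77 and 0.56 for Syn2, 0.34 for the tested second probe set of Sv2b and 0.76 for that of Vamp1. These points share arrays and regions. Which transcript forms the probe sets read was not analysed here.

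**Figure D5:**
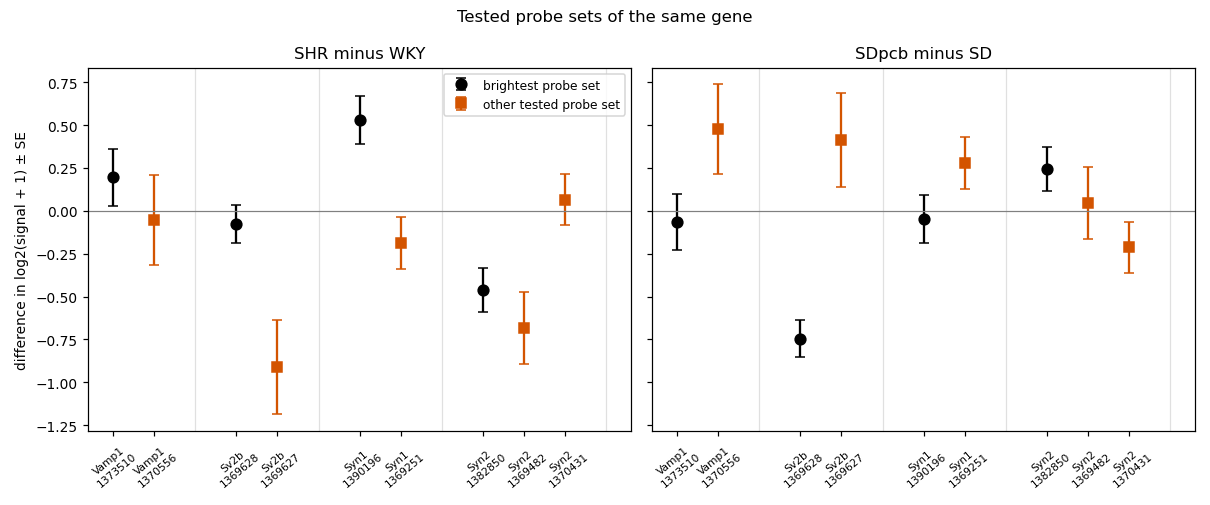
Fitted difference in log2(signal + 1) with SE for every tested probe set of the 4 genes that have more than 1, SHR minus WKY on the left and SDpcb minus SD on the right; black circles are the brightest probe sets. The probe sets of Sv2b lie at -0.08 and -0.91 on the left and at -0.75 and 0.41 on the right, and those of Syn1 at 0.53 and -0.19 on the left.

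Among the members, some pairs tracked each other over the 24 arrays, which share regions and strain groups, so the correlations are descriptions only. Syp and Syn1 had a Pearson r of 0.89, Syn1 and Stx1a 0.80, and Syn2 and Vamp2 0.76, and these were 0.89, 0.76 and 0.74 after quantile normalization. Snap25 and Sv2b had 0.82 as deposited but 0.12 after quantile normalization. Sv2a and Sv2b, paralogous glycoproteins, ran against each other at -0.69 (-0.42 after quantile normalization). The Syp to Syn2 difference within an array cancels a scaling that multiplies the whole array, and it was chosen after the values were seen: it was higher in SHR than in WKY in 6 of 6 regions, by 0.83 ± 0.52 on the log2 scale (SD over regions, n = 6). The Syn1 to Vamp2 difference was higher in 5 of 6, by 1.28 ± 0.72, and the same difference in SDpcb minus SD was -0.61 ± 0.90.

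Outside the members, the genes whose log2 signal was most like that of Syn2 over the 24 arrays were Dyrk2 (r = 0.89), Slc16a7 (0.87), Cacna2d1 (0.85), Opcml (0.85) and Cap2 (0.83), and the first 4 of these stayed in the top 5 after quantile normalization. Nearest to Vamp1 were Aldh1a1 (0.92), Lgals1 (0.88), Luzp1 (0.88), Sparcl1 (0.88) and Lcat (0.86), the same 5 after quantile normalization. For Snap25 the nearest genes depended on the scaling. They were Nid2-ps16 (0.92), Mrfap1 (0.91), Dpysl2 (0.91), Nptn (0.90) and Slc1a3 (0.89) as deposited, and Rap1gds1 (0.87), Serpini1 (0.86), Dgke (0.86), Lancl2 (0.85) and Fgf12 (0.82) after quantile normalization. Sv2b likewise went with Arpc4 (0.91), COX2 (0.90), Gosr1 (0.89), Trim6 (0.89) and Cox7b (0.89) as deposited. After quantile normalization it went with Grin2a (0.82), Tcf4 (0.81), Slc17a7 (0.77), Hivep2 (0.76) and Tnfsf13 (0.75), the list then including the vesicular glutamate transporter Slc17a7 and the NMDA receptor subunit Grin2a.

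Other genes of the release cycle were read from 5 lists, whose counts in SHR minus WKY are to be read against the 20.6% of all genes called higher and 13.1% called lower. In SHR minus WKY, 3 of 13 tested SNARE partners and chaperones rose and 1 fell. Napa and Napb, which encode the alpha and beta forms of the SNAP adaptor that brings NSF to spent SNARE bundles, went opposite ways. Napa differed by 0.80 ± 0.13 (adjusted p = 1.33e-04) and Napb by -0.73 ± 0.11 (adjusted p = 6.80e-05). Snapin, a binding partner of SNAP-25, rose by 0.56 ± 0.13 (adjusted p = 0.00223). Of 10 tested active zone and priming genes 1 rose and 3 fell: the liprin Ppfia2 (-0.83 ± 0.14), the RIM-binding protein Rimbp2 (-0.46 ± 0.12) and the scaffold Erc1 (-0.67 ± 0.24). Of 13 tested genes of vesicle retrieval 3 rose and 1 fell. The fission GTPase Dnm1 rose by 1.20 ± 0.15 (adjusted p = 7.21e-06) and the adaptor subunit Ap2m1 by 0.34 ± 0.11, while the clathrin assembly gene Snap91 fell by 0.44 ± 0.11.

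Other vesicle proteins had 2 higher and 2 lower of 15 tested in SHR minus WKY. The proton pump subunit Atp6v0a1 rose by 0.71 ± 0.14, the vesicular GABA transporter Slc32a1 by 0.89 ± 0.22, and synaptoporin, Synpr, a relative of synaptophysin, fell by 0.61 ± 0.15. SNARE relatives, which work mostly in endosomes and at the plasma membrane of other cells, had 2 higher and 2 lower of 11, with Stx7 at -0.44, Stx6 at -0.43 and Stx4 at 0.61; the call of Stx4 was lost after quantile normalization (0.57, adjusted p = 0.0509). The medians over these 5 lists ran from -0.17 for the active zone to 0.22 for the SNARE partners, beside 0.11 for all genes.

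In SDpcb minus SD the counts were 3 higher and 1 lower of 11 SNARE relatives, 4 and 1 of 13 SNARE partners, 1 and 1 of 10 active zone genes, 2 and 0 of 15 other vesicle proteins, and 1 and 3 of 13 retrieval genes, beside 14.9% higher and 13.5% lower of all genes. The active zone scaffold Bsn fell by 0.95 ± 0.09 (adjusted p = 6.95e-08), the endosomal SNARE Vti1b by 1.55 ± 0.30, clathrin heavy chain Cltc by 0.69 ± 0.08 and Dnm1 by 0.67 ± 0.15. Synpr rose by 0.83 ± 0.15, Prrt2, which binds SNAP-25, by 0.78 ± 0.18, Stx12 by 0.59 ± 0.07, Vamp7 by 0.62 ± 0.12, Scamp1 by 0.43 ± 0.08 and the chaperone Dnajc5 by 0.29 ± 0.08. After quantile normalization Vti1b was at -0.999 (adjusted p = 0.0109), Cltc at -0.26 (adjusted p = 0.00257) and Dnajc5, whose call was lost, at 0.20 (adjusted p = 0.0669). The clathrin uncoating gene Dnajc6 was -0.38 ± 0.07 as deposited and 0.02 after quantile normalization.

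Of these genes 4 are given here because their signs were opposite in the comparisons that share no array. They were chosen after their values were seen and are a description only, beside the 39.8% of all genes whose difference between models was called. Napb was -0.73 in SHR minus WKY and 0.56 in SDpcb minus SD, with a fitted difference between models of -1.29 ± 0.16. Ppfia2 was -0.83 and 0.47 (difference -1.31 ± 0.20), Synpr -0.61 and 0.83 (-1.44 ± 0.22), and Dnm1 1.20 and -0.67 (1.87 ± 0.21). All 4 kept the sign of each value after quantile normalization.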

How the data were processed

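RNA was extracted with RNeasy (Qiagen), labelled with the Ovation system (Nugen) and hybridised to Affymetrix Rat RAE 230 2.0 arrays, per the labels' protocols. The deposited values are linear signal intensities of 31099 probe sets made with MAS5, per the submitters' processing notes; the version is not given in the sources used here. The values show a 2% trimmed mean of 500.2 on each array. Of the probe sets, 57 controls were left out, and of the 31042 kept, 20826 had 1 gene symbol in the platform annotation, 436 several and 9780 none. No detection calls were used, and how far a probe set lies above its background is not known.

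From these, log2(signal + 1) was modelled on strain group plus region, with a mean-variance trend, using limma (3.58.1, under R 4.3.3) over all 24 arrays (15 residual degrees of freedom). Probe sets with a mean signal of at least 137 (the median) were tested, 15521 in all, and p-values were adjusted over them by the Benjamini-Hochberg method. A gene was represented by its brightest tested probe set, giving 8987 genes. Strain differences were called at an adjusted p under 0.05, and region differences also needed a log2 difference of at least 1. Two-sided exact sign-flip tests ran over the 6 within-region differences. Alternatives were quantile, cyclic loess and median scaling, a pseudocount of 16, no filter, no trend, other probe sets, fewer arrays and a filter on mean log2 signal. The region term pairs the strain groups within regions; the labels carry no replicate numbers.

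The members and the lists of other genes were chosen with earlier results of these data known. All members were named, with, in each list, up to 3 genes called with the smallest adjusted p, the 5 genes most correlated with 4 members, and 8 tissue genes. Regions of a group come from the same rats, so p-values measure agreement between regions.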

Additional observations from a re-analysis of the deposited data

Results flagged for a closer look

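Within sets of 4 or 6 arrays, 1 value stood far from the rest in 5 of the 126 sets examined; chance alone gives about 1 in 20 such sets. The vermis held the highest Snap25 signal in WKY (27839) and in SDpcb (32802), far above the other regions of each group. The SHR array held the highest Syn1 signal of the prefrontal cortex (6094), where the other 3 arrays lay between 5141 and 5202. The SD array held the highest Sv2b signal of the ventral striatum (23400), against 10743 to 12133 in the other 3 groups. The vermis gave the 1 positive within-region difference of Vamp2 in SHR minus WKY, at 0.42 on the log2 scale.

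The response also differed between the genetic comparison (SHR minus WKY) and the exposure comparison (SDpcb minus SD) by limma's test of that difference. The values were -1.31 for Vamp2, -0.71 for Syn2, 0.67 for Sv2b, 0.58 for Syn1 and 0.27 for Snap25, the last of which turned to -0.37 after quantile normalization. The call of Sv2b was lost after quantile normalization (0.20, adjusted p = 0.143). The second tested probe sets of Sv2b and Syn1 gave the opposite sign, -1.32 and -0.47.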

How the results depend on the processing

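The number of the 9 genes called depended on the scaling in the comparisons with SD. In SDpcb minus SD it was 5 as deposited, 3 after quantile normalization, 3 after cyclic loess, 8 with arrays centred on their median and 3 with the arrays of the 2 groups only, and it ran from 2 to 5 when each region was left out. In WKY minus SD it was 3, against 1 after quantile normalization and 7 with centred arrays. For the difference between models it was 5, against 8 with centred arrays and 3 to 5 without a region. In SHR minus WKY it was 4 and ran from 3 to 6. Of all 8987 genes, 2549 were called in SDpcb minus SD as deposited, 1918 after quantile normalization and 2178 after cyclic loess. Centred arrays gave 6871 there, and the arrays of the 2 groups only gave 1589. In WKY minus SD 1542 of all genes were called, against 1203 after quantile normalization and 5331 with centred arrays. Between models 3575 were called, against 6234 with centred arrays, and 3033 in SHR minus WKY as deposited. With a region left out, the count of all genes ran from 1838 to 2816 in SDpcb minus SD and from 2633 to 4100 between models. In SHR minus WKY it was 1948 without the ventral striatum arrays and 3560 with the arrays of the 2 groups only. The counts of all genes thus moved with the setting as well. At a log2 difference of 0.5 in place of 1, the count became 3 in the dorsal striatum, 1 in the ventral striatum, 5 in the prefrontal cortex, 2 in the hippocampus, 6 in substantia nigra/VTA and 8 in the vermis. The share of all genes at 0.5 was not computed, so whether these counts stand apart from all genes is not known. At the threshold of 1, substantia nigra/VTA had 0 after quantile normalization, 0 after loess, 1 with centred arrays and 0 to 1 without a strain group. Of all 8987 genes, 590, 610 and 716 were called there after quantile normalization, after loess and with centred arrays. Without a strain group 575 to 740 were, against 613 as deposited. A filter on mean log2 signal, chosen after seeing the data, does not test Stx1a, and left 1 call in each of the prefrontal cortex, substantia nigra/VTA and vermis. Of the 9009 genes tested under that filter, 408, 574 and 1225 were called in these regions.

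Directions turned as follows. After quantile normalization Snap25 was 0.31 in SDpcb minus SD, 0.038 in WKY minus SD and -0.37 between models, Vamp1 was -0.038 in WKY minus SD and Sv2a 0.15 between models. After loess Snap25 was 0.057 and Sv2b 0.013 in SHR minus WKY, Vamp1 -0.030 in WKY minus SD and Sv2a 0.064 between models. With centred arrays, which shifted the median of all genes to -0.22 in SHR minus WKY, 0.73 in SDpcb minus SD, 0.22 in SHR minus SD, 0.47 in WKY minus SD and -0.93 between models, Vamp1 was -0.14 in SHR minus WKY. Snap25, Syn1 and Vamp1 were then 0.43, 0.68 and 0.66 in SDpcb minus SD, Vamp2 0.026 in SHR minus SD and Syn2 0.31 in WKY minus SD. Between models Snap25, Syn1, Syp, Vamp1 and Sv2b were -0.80, -0.48, -0.78, -0.80 and -0.39. Other probe sets gave -0.19 for Syn1, 0.065 for Syn2 and -0.054 for Vamp1 in SHR minus WKY, and 0.28, -0.21 and 0.48 for the same genes and 0.41 for Sv2b in SDpcb minus SD. They gave 0.056 for Syn2 and -0.12 for Vamp1 in SHR minus SD, and 0.51 for Syn2, -0.066 for Vamp1 and 0.28 for Sv2b in WKY minus SD.

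Leaving out each region gave ranges that crossed 0 for genes that were not called: Snap25 in SHR minus WKY from -0.063 to 0.0076; Syn1, Syp and Vamp1 in SDpcb minus SD from -0.15 to 0.10, -0.069 to 0.21 and -0.18 to 0.10. Vamp2 in SHR minus SD ran from -0.22 to 0.053, and between models Stx1a ran from -0.75 to 0.25 and Sv2a from -0.19 to 0.011. The causes were not tested.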

Other observations

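The genes below were among the up to 3 called genes with the smallest adjusted p of their list in the region named. Slc17a7, the vesicular glutamate transporter of cortex and hippocampus, was 1.96 ± 0.34 higher in the prefrontal cortex, 2.20 ± 0.34 higher in the hippocampus and lower in substantia nigra/VTA (log2 difference -2.81 ± 0.34). Slc17a6, its subcortical relative, was 3.96 ± 0.33 higher in substantia nigra/VTA, as was the monoamine transporter Slc18a2 by 2.49 ± 0.16. The GABA transporter Slc32a1 was 1.17 ± 0.21 higher in the dorsal striatum and 1.13 ± 0.21 higher in the ventral striatum, where Synpr was 1.39 ± 0.15 and 1.30 ± 0.15 higher. All values are limma log2 differences of a region from the mean of the other 5, each with an adjusted p under 0.05.

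In the vermis, among active zone and priming genes, Cadps2 and Unc13c, which prime vesicles for release, were 1.96 ± 0.20 and 1.76 ± 0.38 higher and Rimbp2 was lower (log2 difference -2.81 ± 0.12). Among other vesicle proteins the synaptotagmins Syt5 and Syt17 were lower there, at -3.12 ± 0.26 and -4.37 ± 0.35. Rimbp2 was 1.52 ± 0.12 higher in the prefrontal cortex and 1.45 ± 0.12 higher in the hippocampus.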
